A study of Mus musculus with 12 samples.

Results

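Naive CD4+ T cells were compared with TregHAR cells, the regulatory T (Treg) cells that harmine and little TGF-β induce from them in culture. The comparison takes the 4 arrays labelled for harmine and the 4 arrays labelled for naive cells, that is, 8 of the 12 arrays of the series. On each side, 2 arrays stem from naive cells purified by fluorescence-activated sorting (FACS) and 2 from naive cells purified on magnetic columns (MACS). All cells came from Foxp3GFP mice, in which cells that express Foxp3 carry green fluorescent protein. The naive cells were CD4+CD62L+ and were not cultured. The TregHAR cells were sorted as GFP+ cells by FACS on day 4 of culture. The methods describe Treg cultures on plates coated with antibodies to CD3 and CD28, fed with IL-2 and treated again with the compound at day 2. The remaining 4 arrays hold TregHI cells, made with a high concentration of TGF-β and no harmine, and appear below only as values set beside those of TregHAR cells. No array held cells cultured in low TGF-β without harmine, nor cells activated without TGF-β, so harmine, TGF-β, activation, IL-2 and time in culture cannot be told apart in the comparison with naive cells. Separate animals or cultures are not stated for the 2 arrays of a group, and p-values therefore measure only the spread between arrays. The age and sex of the mice are not given in the sources used here.

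Naive T cells are small resting cells that recirculate through lymphoid organs, live on IL-7, and hold back growth through factors such as Foxo1 and Klf2. Engagement of the T cell receptor and CD28 takes them into the cell cycle and turns them to glycolysis and lipid synthesis, while IL-2 acts through STAT5. TGF-β given with IL-2 at activation induces Foxp3, the transcription factor that defines Treg cells. Harmine is a plant alkaloid that inhibits the DYRK family of kinases.

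The arrays differed widely between the treatments. Among the 15663 genes tested, 2160 (13.8%) were higher and 2149 (13.7%) lower in TregHAR cells than in naive cells at an adjusted p under 0.05 (limma, Benjamini-Hochberg over all genes). Of these, 608 higher genes (3.88% of those tested) and 456 lower genes (2.91%) passed 2-fold. The shares of 13.8% and 13.7% are the background for every count of list members below. The difference of a gene is the mean of its FACS and MACS log2 differences, TregHAR minus naive, and is given with its moderated standard error (SE) and n = 4 arrays on each side. Of the 4309 genes called, 4278 had the same sign with both purifications. Since naive MACS arrays carry more RNA of other blood cells, each result was also set against the 2 naive FACS arrays alone, where 3529 genes (22.5%) were called and 3329 of the 4309 kept their call and sign. Higher genes made up 50.1% of the calls, but 60.2% when the arrays were scaled to a common median instead of quantile normalized. The correlation between a TregHAR and a naive array ran from 0.906 to 0.930 over the 15663 genes, against 0.969 to 0.992 within naive and 0.982 to 0.995 within TregHAR arrays. Between 29.9% and 30.1% of the probes exceeded the background ceiling, a level near 6.23 on the log2 scale, on each of the 8 arrays. Quantile normalization gives all arrays the same distribution of values, which fixes this share to be nearly equal. Values per array are listed in the order FACS 1, FACS 2, MACS 1, MACS 2. In RNA from a cell population, fewer cells of a type and less RNA per cell cannot be told apart.

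The labels were checked first. *Foxp3* itself was not higher in TregHAR cells. Its log2 level was 7.42, 7.28, 7.09 and 7.11 on the naive arrays and 7.40, 6.96, 6.87 and 6.71 on the TregHAR arrays, with a difference of -0.24 ± 0.13 (adjusted p = 0.253). The naive and TregHAR arrays overlapped, and its other probes gave 0.19 and 0.06 and exceeded the background ceiling on 2 and 4 of the 8 arrays. The arrays thus did not show the rise in *Foxp3* RNA that the label calls for, and TregHAR is used here as the name of the arrays. The cells were sorted as GFP+, and by flow cytometry the paper reports FOXP3 protein in TregHAR cells no lower than in TregHI cells. Why the probes showed no rise was not tested. T cell genes were present on every array. *Cd3e*, a signalling chain of the T cell receptor complex, measured 12.87, 12.56, 12.64 and 12.29 in naive and 11.86, 12.03, 11.99 and 11.81 in TregHAR cells. The TregHAR arrays lay below the naive arrays without overlap (-0.67 ± 0.13, adjusted p = 0.00359). Among 16 tested genes of T cell identity, 11 were lower, against 13.7% of all genes, 1 was higher and 4 were not called, with a median difference of -0.75 against -0.01 over all genes. The decreases reached -1.75 ± 0.13 for *Trat1*, an adaptor bound to the T cell receptor (adjusted p = 7.82e-06), and -1.47 ± 0.28 for *Cd247*, the zeta chain of the receptor (adjusted p = 0.00307). The coreceptor *Cd4* differed by -0.92 ± 0.17 (adjusted p = 0.00251). The one increase was that of the surface glycoprotein *Thy1* with 0.39 ± 0.07 (adjusted p = 0.00159).

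Genes of the IL-2 and STAT5 response held the largest increases. The suppressor of cytokine signalling *Socs2*, a STAT5 target that damps receptor signals, lay at 6.28, 6.13, 6.55 and 6.55 in naive cells, at or near background, and at 12.56, 12.78, 13.17 and 12.59 in TregHAR cells. *Cish*, a second STAT5-induced inhibitor of the same family, measured 8.31, 7.66, 8.38 and 8.01 in naive against 12.59, 12.32, 12.45 and 12.49 in TregHAR cells. The lowest TregHAR array of each gene lay more than 3 log2 units above its highest naive array, with differences of 6.40 ± 0.19 for *Socs2* (adjusted p = 2.27e-08) and 4.37 ± 0.14 for *Cish* (adjusted p = 3.8e-08). *Il2ra*, the alpha chain that gives the IL-2 receptor its high affinity, was under the background ceiling on all 4 naive arrays (5.88 to 6.04) and lay at 9.63, 9.93, 10.32 and 9.56 on the TregHAR arrays, at least 12.4-fold higher (adjusted p = 1.19e-07). The cytokine *Lta*, lymphotoxin alpha, rose by 3.11 ± 0.32 (adjusted p = 6.44e-05), the survival factor *Bcl2* by 1.34 ± 0.13 (adjusted p = 3.55e-05) and the kinase *Pim1* by 1.11 ± 0.11 (adjusted p = 4.38e-05). The receptor's beta chain *Il2rb* rose by 0.48 ± 0.09 (adjusted p = 0.00259). In all, 14 of 23 tested members were higher (60.9%, against 13.8% of all genes), 1 was lower and 8 were not called. Of the 14, 13 were also higher against the naive FACS arrays alone. The one decrease was that of *Mcl1*, a survival factor of the BCL2 family (-0.90 ± 0.16, adjusted p = 0.00179).

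The start of *Cish* is shown because it carries paired letters of the kind that STAT proteins are known to read. The 28 bases of mouse build GRCm38.p6 at chr9:107296655-107296682 (plus strand, from RefSeq) run from 4 bases before the annotated start of the gene into its first exon. Capitals mark matches to TTCNNNGAA.
Cish: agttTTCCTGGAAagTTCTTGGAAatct
Of 24 promoter windows of the list's members (250 bases before to 50 after the start, 18 members with a window), 4 (16.7%) held the motif on either strand, against 8.3% of all 32851 RefSeq windows and 7.47% of the windows of genes tested. A match of letters is a description and not a site.

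Treg signature genes rose in part. Of 33 tested members of the list, 15 were higher (45.5%), 4 lower (12.1%) and 14 not called. Over all genes, 13.8% were higher and 13.7% lower, so the share of lower members was near that of all genes. Of the 15, 13 were also higher against naive FACS arrays alone. The costimulatory receptor *Tnfrsf4* (OX40) measured 7.97, 8.02, 8.35 and 8.32 in naive and 11.78, 11.56, 11.71 and 11.95 in TregHAR cells, a difference of 3.58 ± 0.08 (adjusted p = 6.06e-09). *Gpr83*, an orphan-type receptor characteristic of Treg cells, measured 8.58, 9.14, 8.40 and 8.78 against 11.52, 11.54, 11.90 and 11.48 (2.89 ± 0.15, adjusted p = 8.37e-07). For both genes the lowest TregHAR array stood more than 2 log2 units above the highest naive array. *Nt5e*, the ectoenzyme CD73 that makes adenosine, rose by 2.51 ± 0.16 (adjusted p = 2.67e-06), *Tnfrsf18* (GITR) by 2.43 ± 0.15 (adjusted p = 1.96e-06) and the semaphorin and VEGF coreceptor *Nrp1* by 2.16 ± 0.18 (adjusted p = 1.38e-05). The inhibitory receptor *Ctla4*, which binds CD80 and CD86, measured 8.46, 9.82, 10.57 and 9.70 against 7.02, 7.44, 7.02 and 7.41 in naive cells. All TregHAR arrays were above all naive arrays for *Ctla4*, and the difference was 2.41 ± 0.31 (adjusted p = 0.000236). The costimulatory receptor *Icos* rose by 2.04 ± 0.11 (adjusted p = 9.24e-07) and *Irf4*, a transcription factor of activated and effector Treg cells, by 1.56 ± 0.16 (adjusted p = 4.99e-05). *Ikzf2* (Helios, a factor of thymus-derived Treg cells) differed by 0.04 ± 0.09 (adjusted p = 0.792) and the integrin chain *Itgae* (CD103), near background, by -0.15 ± 0.18 (adjusted p = 0.659). *Il10*, an inhibitory cytokine, was lower (-0.37 ± 0.07, adjusted p = 0.0035), but its FACS difference alone was not called (-0.23, adjusted p = 0.187). The values of these genes on each array, with those of the groups below, are in the plot of genes by array.

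**Figure D1:**
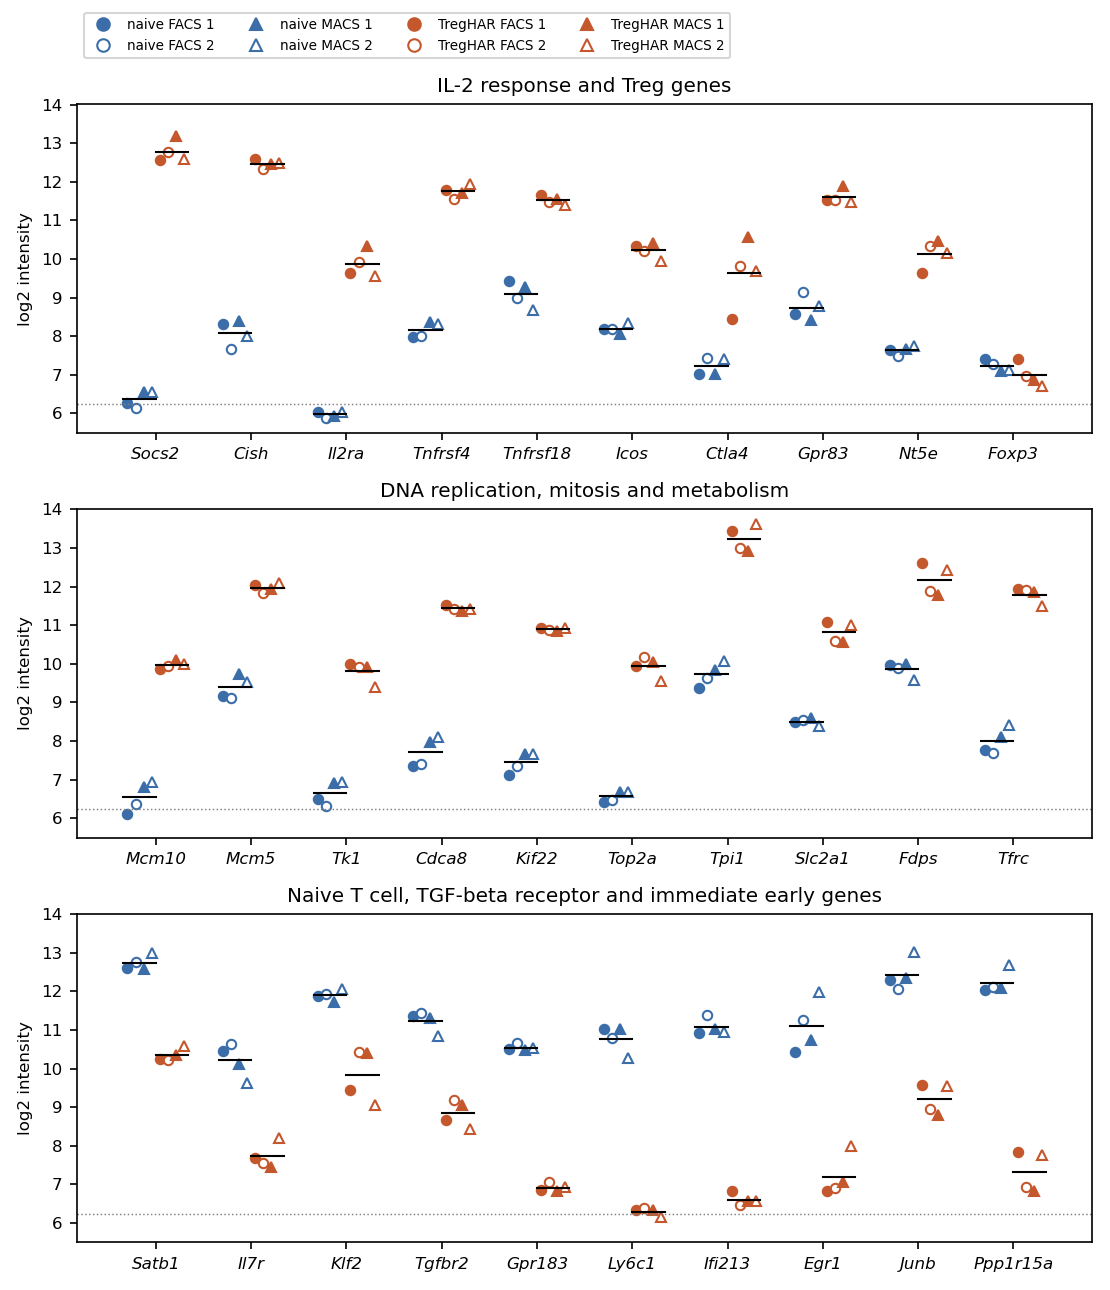
The log2 intensity of 30 genes on each of the 8 arrays, with naive arrays in blue, TregHAR arrays in orange, circles for FACS and triangles for MACS, filled symbols for replicate 1 and open symbols for replicate 2. Black lines are means of the 4 arrays of a treatment, and the dotted line is the background ceiling near 6.23. *Foxp3* is the only gene shown whose naive and TregHAR arrays overlap.

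Receptors of the TNF receptor and CD28 families moved both ways. Of 27 tested, 7 were higher (25.9%), each by more than 2-fold, 5 were lower (18.5%) and 15 were not called. Over all genes, 13.8% were higher and 13.7% lower. Beside *Tnfrsf4*, *Tnfrsf18*, *Ctla4* and *Icos*, the activation receptor *Tnfrsf9* (4-1BB) rose by 1.41 ± 0.15 (adjusted p = 8.24e-05) and the cytokine *Tnfsf11* (RANKL) by 1.11 ± 0.14 (adjusted p = 0.000224). Among the receptors that fell, *Btla*, an inhibitory receptor, decreased by 1.05 ± 0.16 (adjusted p = 0.000767) and *Cd96*, a receptor of T and NK cells, by 1.33 ± 0.11 (adjusted p = 1.62e-05). The costimulatory receptor *Cd27* measured 12.44, 12.33, 12.11 and 11.95 in naive and 10.38, 11.43, 11.51 and 10.41 in TregHAR cells, lower on every TregHAR array (-1.28 ± 0.27, adjusted p = 0.00558). Activation markers were divided too, with 9 of 19 higher and 7 lower. *Cd80*, a ligand of CD28 and CTLA-4, was under the ceiling on all naive arrays (5.98 to 6.18) and reached 8.24, 8.93, 9.09 and 8.71 in TregHAR cells, at least 5.72-fold higher (adjusted p = 9.2e-07). The early activation marker *Cd69* fell by 1.69 ± 0.23 (adjusted p = 0.000385). *Cd274* (PD-L1), a ligand of the inhibitory receptor PD-1, fell by 1.38 ± 0.12 (adjusted p = 2.19e-05). The largest decrease of the activation markers was that of *Ly6c1*, a surface protein of the Ly6 family, with 11.02, 10.79, 11.03 and 10.29 in naive and 6.32, 6.38, 6.33 and 6.16 in TregHAR cells (-4.48 ± 0.23, adjusted p = 6.55e-07).

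DNA replication genes rose almost as a whole. Of 49 tested, 47 were higher (13.8% of all genes were), none was lower, and 32 of the 47 exceeded 2-fold, while 46 were also higher against the naive FACS arrays alone. None of the 47 had overlapping naive and TregHAR arrays, as was the case for 1922 of all 2160 genes called higher. The median difference of the list was 1.41. *Mcm10*, which helps to start replication forks, measured 6.10, 6.38, 6.80 and 6.93 in naive and 9.87, 9.93, 10.11 and 10.01 in TregHAR cells (3.43 ± 0.08, adjusted p = 6.13e-09). *Tk1*, the thymidine kinase of dividing cells, rose by 3.15 ± 0.10 (adjusted p = 4.29e-08), the histone chaperone subunit *Chaf1a* by 2.88 ± 0.07 (adjusted p = 8e-09) and *Rrm1*, the large subunit of ribonucleotide reductase, by 2.71 ± 0.08 (adjusted p = 2.66e-08). *Mcm5*, a subunit of the replicative helicase, measured 9.17, 9.12, 9.74 and 9.52 in naive and 12.04, 11.83, 11.94 and 12.09 in TregHAR cells (2.59 ± 0.09, adjusted p = 4.75e-08). The naive MACS arrays were above the naive FACS arrays for *Mcm10*, *Tk1* and *Mcm5*, and the rise was then larger against FACS arrays alone. The 2 members not called were *E2f8*, a repressor of the E2F family, and *Orc1*, a subunit of the origin recognition complex, with 0.22 ± 0.09 (adjusted p = 0.0984) and 0.10 ± 0.07 (adjusted p = 0.315), both under the ceiling on all 8 arrays. *E2f8* passed without naive FACS replicate 2 (0.28, adjusted p = 0.0498) or TregHAR MACS replicate 2 (0.29, adjusted p = 0.0372).

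E2F factors are known to read GC-rich letters after a run of T before the starts of S-phase genes, and the promoters of 3 replication genes are shown for this reason. Searched on both strands were TTTGGCGC, TTTCCCGC, TTTGCCGC and TTTCGCGC. Of 48 windows of the list's members (41 members with a window of 49 tested), 16 (33.3%) held a match, against 2.26% of all RefSeq windows, 3.29% of those of genes tested and 8.7% of 46 windows of mitosis genes. The sequences are the 150 bases before the start, 5′ to 3′ on the gene's strand, from RefSeq on GRCm38.p6, with matches in capitals. They are Mcm5 at chr8:75109359-75109508 (plus), Mcm6 at chr1:128359706-128359855 (minus) and Cdc6 at chr11:98908001-98908150 (plus).
Mcm5: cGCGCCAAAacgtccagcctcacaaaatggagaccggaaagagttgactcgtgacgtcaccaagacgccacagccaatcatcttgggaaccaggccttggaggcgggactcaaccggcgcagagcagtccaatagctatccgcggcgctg
Mcm6: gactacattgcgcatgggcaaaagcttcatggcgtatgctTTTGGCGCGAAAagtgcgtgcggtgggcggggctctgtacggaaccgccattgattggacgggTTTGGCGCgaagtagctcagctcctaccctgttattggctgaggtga
Cdc6: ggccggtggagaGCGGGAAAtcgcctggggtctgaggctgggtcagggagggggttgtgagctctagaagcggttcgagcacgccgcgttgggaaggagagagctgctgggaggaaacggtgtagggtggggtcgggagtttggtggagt
*Mcm6*, another helicase subunit, holds 3 matches, of which 2 overlap, and its RNA rose by 2.16 ± 0.14 (adjusted p = 3.2e-06). *Cdc6*, which loads the helicase onto origins, was under the ceiling on all naive arrays and measured 6.71, 7.24, 7.87 and 7.54 in TregHAR cells, at least 2.16-fold higher (adjusted p = 0.000884).

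Mitosis and kinetochore genes rose likewise. Of 50 tested, 44 were higher (88%, against 13.8% of all genes), 33 of them by more than 2-fold, 1 was lower and 5 were not called. Of the 44, 43 were also higher against naive FACS arrays alone. The median difference was 1.99, the largest of the 35 lists. *Kif22*, a kinesin that moves chromosomes, measured 7.12, 7.35, 7.65 and 7.65 in naive and 10.92, 10.87, 10.85 and 10.94 in TregHAR cells (3.45 ± 0.08, adjusted p = 6.06e-09). *Top2a*, the topoisomerase that untangles chromosomes, measured 6.42, 6.48, 6.67 and 6.69 against 9.95, 10.17, 10.05 and 9.55 (3.37 ± 0.13, adjusted p = 1.02e-07). The TregHAR arrays of both genes lay more than 2.5 log2 units above every naive array. *Birc5* (survivin), which works with Cdca8 in the chromosomal passenger complex, rose by 3.61 ± 0.18 (adjusted p = 4.69e-07), the checkpoint kinase *Bub1b* by 3.37 ± 0.09 (adjusted p = 8.67e-09) and *Cdc20*, an activator of the anaphase-promoting complex, by 3.24 ± 0.08 (adjusted p = 8.67e-09). The one decrease was that of securin, *Pttg1*, at background level in TregHAR cells (naive 5.98 to 6.50, TregHAR 5.90 to 6.0, -0.31 ± 0.08, adjusted p = 0.0179), and the call was lost without naive FACS replicate 2 (-0.27, adjusted p = 0.0739), TregHAR FACS replicate 1 (-0.30, adjusted p = 0.0595) or TregHAR MACS replicate 2 (-0.31, adjusted p = 0.0507).

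Genes of mitosis often carry the cell cycle genes homology region (CHR), TTTGAA or TTCGAA, near their start, and 3 such promoters are shown. The motif stood on either strand in 35 of 46 windows of the list's members (76.1%, 41 members with a window), against 19.2% of all RefSeq windows, 15.7% of windows of genes tested and 20.8% of the 48 windows of replication genes. The 150 bases before the start are printed as above, with matches in capitals, for Kif22 at chr7:127042421-127042570, Top2a at chr11:99024190-99024339 and Cdc20 at chr4:118437344-118437493, all on the minus strand.
Kif22: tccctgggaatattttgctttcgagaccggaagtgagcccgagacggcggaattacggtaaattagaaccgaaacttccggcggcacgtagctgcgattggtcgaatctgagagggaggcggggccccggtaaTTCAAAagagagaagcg
Top2a: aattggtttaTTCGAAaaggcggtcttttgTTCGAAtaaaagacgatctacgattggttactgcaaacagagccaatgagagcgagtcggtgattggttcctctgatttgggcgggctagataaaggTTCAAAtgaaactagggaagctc
Cdc20: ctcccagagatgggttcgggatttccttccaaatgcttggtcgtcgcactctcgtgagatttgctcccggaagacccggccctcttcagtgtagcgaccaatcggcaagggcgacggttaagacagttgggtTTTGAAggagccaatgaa
In each of these promoters 1 match lay within the last 23 bases before the start, at -17 in *Kif22*, -23 in *Top2a* and -18 in *Cdc20*, counted from the start to the first base of the match. No finding on the binding of a factor follows from these letters.

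Regulators of G1 rose in 11 of 19 genes tested and fell in 2. The CDK inhibitor *Cdkn1a* (p21), a p53 target, showed the largest rise of the list, from 5.97, 5.89, 6.28 and 6.43 in naive to 9.76, 8.80, 8.86 and 10.17 in TregHAR cells (3.25 ± 0.27, adjusted p = 1.46e-05). *Myc*, a driver of growth listed with the activation markers, lay near background and rose by 0.30 ± 0.07 (adjusted p = 0.00658), but was not called against naive FACS arrays alone (0.14, adjusted p = 0.311). *Cdk4*, the kinase of D-type cyclins, rose by 1.23 ± 0.21 (adjusted p = 0.00139), *Ccnd3*, the main D-type cyclin of lymphocytes, by 1.02 ± 0.18 (adjusted p = 0.00216), and *Ccne1*, which drives entry into S phase, by 0.97 ± 0.10 (adjusted p = 5.57e-05). *Cdkn1b* (p27), an inhibitor that keeps resting T cells out of the cycle, measured 7.79, 7.76, 7.58 and 7.71 in naive and 7.05, 7.20, 7.13 and 7.12 in TregHAR cells and fell without overlap (-0.58 ± 0.07, adjusted p = 0.000151). *Ccnd1* fell too (-2.02 ± 0.09, adjusted p = 3.51e-07), but its naive level was 7.09 and 7.26 on FACS and 9.0 and 9.22 on MACS arrays, so that its difference was -1.06 with FACS and -2.97 with MACS arrays. Among genes of DNA and histone methylation, *Uhrf1*, which brings DNA methyltransferase to replicated DNA, rose by 3.38 ± 0.26 (adjusted p = 8e-06), the histone methyltransferase *Ezh2* by 2.30 ± 0.11 (adjusted p = 5.66e-07) and *Dnmt1*, the maintenance methyltransferase, by 1.59 ± 0.16 (adjusted p = 5.15e-05), while *Tet1*, which oxidises methylcytosine, decreased by 0.59 ± 0.12 (adjusted p = 0.00458). The list of DNA methylation and TET genes had 4 higher, 1 lower and 5 not called of 10 tested.

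The list of glycolysis genes, which also holds genes of the response to low oxygen such as *Egln3*, rose in 19 of 24 tested (79.2%, against 13.8% of all genes). Of the 19, 14 rose by more than 2-fold. The median difference was 1.61, and 18 of the 19 were also higher against naive FACS arrays alone. *Tpi1*, triosephosphate isomerase, measured 9.37, 9.63, 9.84 and 10.07 in naive and 13.45, 12.99, 12.91 and 13.62 in TregHAR cells (3.51 ± 0.21, adjusted p = 1.62e-06). One of its other probes gave 3.55 and another 0.52. *Pgk1*, phosphoglycerate kinase, rose by 2.84 ± 0.12 (adjusted p = 2.37e-07), the glucose carrier *Slc2a1* by 2.32 ± 0.14 (adjusted p = 2.18e-06) and lactate dehydrogenase A, *Ldha*, by 1.48 ± 0.10 (adjusted p = 4.97e-06). The oxygen sensor *Egln3* and the aldolase *Aldoc* were under the ceiling on every naive array and at least 7.87-fold (adjusted p = 4.74e-05) and at least 4.82-fold higher (adjusted p = 0.000111) in TregHAR cells. *Egln3* measured 9.03, 8.52, 8.82 and 10.44 on the TregHAR arrays. The regulator *Pfkfb4* was the one member lower (-0.61 ± 0.19, adjusted p = 0.0343), and it was not called against naive FACS arrays alone (-0.32, adjusted p = 0.427). Its call was also lost without naive FACS replicate 1 (-0.55, adjusted p = 0.113), naive FACS replicate 2 (-0.67, adjusted p = 0.0596), naive MACS replicate 2 (-0.52, adjusted p = 0.108), TregHAR FACS replicate 2 (-0.51, adjusted p = 0.113) or TregHAR MACS replicate 1 (-0.43, adjusted p = 0.0998).

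Cholesterol and fatty acid genes rose in 20 of 29 tested (69%, against 13.8% of all genes), and 1 fell. *Fdps*, farnesyl diphosphate synthase, measured 9.97, 9.89, 9.99 and 9.58 in naive and 12.60, 11.88, 11.77 and 12.44 in TregHAR cells (2.32 ± 0.19, adjusted p = 1.46e-05), with all TregHAR arrays above all naive arrays. The sterol carrier *Stard4* rose by 2.29 ± 0.13 (adjusted p = 1.42e-06), the desaturase *Fads1* by 2.05 ± 0.10 (adjusted p = 6.36e-07), squalene epoxidase, *Sqle*, by 1.95 ± 0.12 (adjusted p = 2.1e-06) and the elongase *Elovl6* by 2.65 ± 0.20 (adjusted p = 7.65e-06). *Acss2*, which makes acetyl-CoA from acetate, was the one that fell (-1.24 ± 0.19, adjusted p = 0.000677). The sterol regulator *Srebf2* rose by 0.64 ± 0.12 (adjusted p = 0.00231), but its MACS difference alone was not called (0.28, adjusted p = 0.314). The sterol regulator *Srebf1*, near background, differed by 0.20 ± 0.07 (adjusted p = 0.0775), passing only without naive FACS replicate 1 (0.26, adjusted p = 0.0355) or naive MACS replicate 1 (0.26, adjusted p = 0.0379). The 2 genes were not compared with each other. Nucleotide and one-carbon genes rose in 9 of 25. Thymidylate synthase, *Tyms*, rose by 2.43 ± 0.19 (adjusted p = 8.32e-06) and *Psat1*, of serine synthesis, by 1.71 ± 0.14 (adjusted p = 1.1e-05), whereas *Dhodh*, of pyrimidine synthesis, fell by 0.49 ± 0.11 (adjusted p = 0.00801) but missed the threshold with arrays scaled to a common median (-0.39, adjusted p = 0.0593).

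Housekeeping machines of growth changed less. Subunits of oxidative phosphorylation were higher in 18 of 31 with a median of 0.40, but only 10 of the 18 also passed the test against naive FACS arrays alone. *Ndufb8*, of complex I, rose by 1.19 ± 0.10 (adjusted p = 1.56e-05) and *Cox5a*, of cytochrome c oxidase, by 0.89 ± 0.09 (adjusted p = 7.01e-05). Aminoacyl-tRNA synthetases were higher in 9 of 18 and lower in none, led by the valine enzyme *Vars* (1.54 ± 0.21, adjusted p = 0.000323). Proteasome subunits were higher in 15 of 29. The 3 that fell, *Psmb10* (-1.08 ± 0.10, adjusted p = 3.56e-05), *Psmb9* (-0.64 ± 0.13, adjusted p = 0.00529) and *Psme1* (-0.49 ± 0.06, adjusted p = 0.000149), are known as interferon-induced parts of the immunoproteasome and its activator. *Psmb5*, a standard subunit, rose by 0.83 ± 0.16 (adjusted p = 0.00315), but its MACS difference alone was not called (0.59, adjusted p = 0.108). The immunoproteasome subunit *Psmb8* was tested and was not among the 3 that fell. Ribosome biogenesis genes had a median of 0.01, with 4 of 32 higher and 4 lower, shares of the size seen over all genes (13.8% and 13.7%). Chaperones had 4 of 26 higher (15.4%) and 1 lower, and nutrient and ion transporters 9 of 25 higher (36%) and 3 lower (12%).

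**Figure D2:**
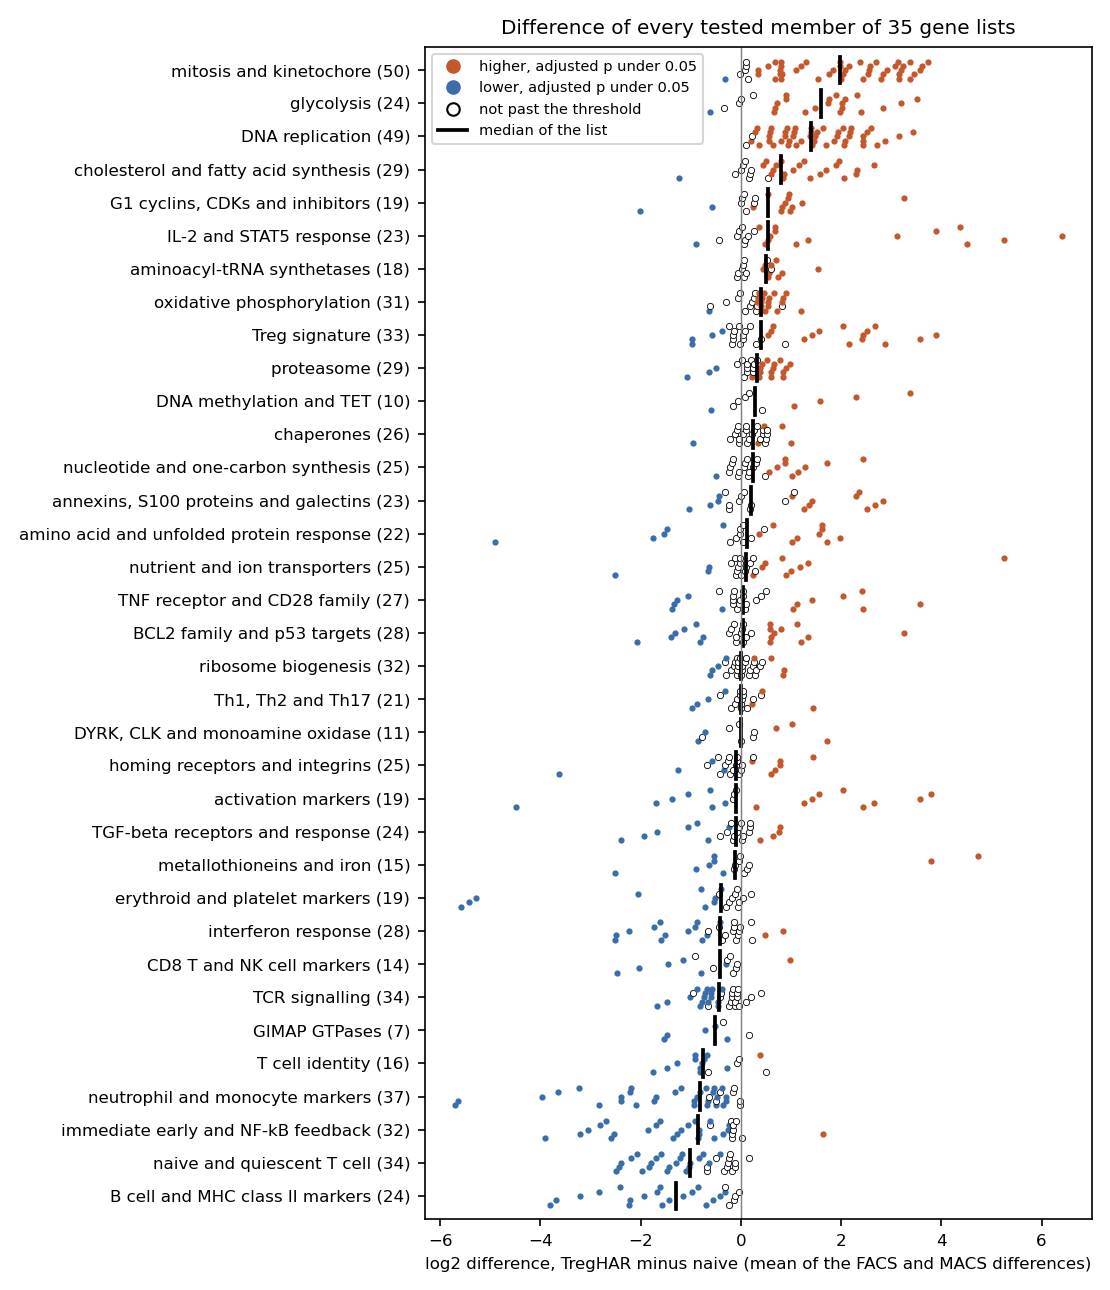
The log2 difference (TregHAR minus naive, x axis) of every tested member of the 35 gene lists, ordered by median, with the number tested in brackets. Filled points passed the test (orange higher, blue lower), open points did not, and black bars are medians, which run from -1.29 for B cell markers to 1.99 for mitosis.

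Genes of naive and quiescent T cells fell. Of 34 tested, 22 were lower (13.7% of all genes were), none was higher, and 18 of the 22 fell by more than 2-fold, with a median difference of -1.02, and 22 of 22 were also lower against naive FACS arrays alone. *Satb1*, a chromatin organiser of T cells, measured 12.62, 12.77, 12.59 and 12.99 in naive and 10.25, 10.23, 10.36 and 10.58 in TregHAR cells (-2.39 ± 0.09, adjusted p = 1.21e-07). *Il7r*, the receptor for the survival cytokine of resting T cells, measured 10.46, 10.64, 10.11 and 9.64 against 7.69, 7.55, 7.44 and 8.21 (-2.49 ± 0.17, adjusted p = 5.1e-06). Both fell on every TregHAR array by more than 1 log2 unit from the lowest naive array. *Klf2*, which maintains quiescence and the receptors for recirculation, measured 11.89, 11.95, 11.72 and 12.06 in naive and 9.44, 10.44, 10.40 and 9.06 in TregHAR cells (-2.07 ± 0.29, adjusted p = 0.0004). *Foxo1*, which drives *Klf2* and *Il7r* in naive cells, fell by 1.79 ± 0.20 (adjusted p = 0.000112) and *Tsc22d3* (GILZ), a Foxo and glucocorticoid target, by 2.43 ± 0.19 (adjusted p = 9.49e-06). The antiproliferative *Btg1* fell by 1.97 ± 0.14 (adjusted p = 6.45e-06), *Txnip*, which curbs glucose uptake, differed by -1.70 ± 0.13 (adjusted p = 7.03e-06), and the Wnt pathway factor *Lef1* by -1.29 ± 0.19 (adjusted p = 0.000568). The homing receptor *Ccr7* measured 8.38, 8.32, 8.03 and 8.46 in naive and 7.31, 8.11, 7.93 and 7.14 in TregHAR cells and missed the threshold (-0.68 ± 0.23, adjusted p = 0.0566), which it passed without TregHAR FACS replicate 2 (-0.88, adjusted p = 0.0201) or TregHAR MACS replicate 1 (-0.87, adjusted p = 0.0192). *S1pr1*, the receptor for exit from lymph nodes, was near background throughout (-0.25 ± 0.09, adjusted p = 0.0624) and passed without naive FACS replicate 1 (-0.31, adjusted p = 0.036) or naive MACS replicate 1 (-0.32, adjusted p = 0.0238). Both *Ccr7* and *S1pr1* also passed in some fits with all arrays, given with the processing below.

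Of the homing receptors, *Gpr183* (EBI2), which guides lymphocytes along oxysterols, measured 10.52, 10.66, 10.47 and 10.53 in naive and 6.84, 7.05, 6.82 and 6.92 in TregHAR cells (-3.64 ± 0.15, adjusted p = 1.78e-07), and *Cxcr4*, the receptor for CXCL12, fell by 1.25 ± 0.15 (adjusted p = 0.000191). Of 10 integrin chains tested, 3 rose and 7 were not called, with 0.78 ± 0.07 for *Itgav* (adjusted p = 1.65e-05) and 0.60 ± 0.08 for *Itgb1* (adjusted p = 0.000444). Over the list of homing receptors and integrins, 6 of 25 were higher (24%) and 4 lower (16%), against 13.8% and 13.7% of all genes. GIMAP GTPases, which support lymphocyte survival, were lower in 5 of 7 (3 of the 5 also against naive FACS arrays alone), most in *Gimap6* (-1.54 ± 0.18, adjusted p = 0.000122) and *Gimap8* (-1.48 ± 0.13, adjusted p = 1.92e-05).

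T cell receptor signalling genes were lower in 16 of 34 and higher in none, with a median of -0.44, and 12 of the 16 were also lower against naive FACS arrays alone. *Dgka*, a diacylglycerol kinase that limits receptor signals, measured 12.91, 12.96, 12.82 and 12.55 in naive and 11.17, 11.29, 11.12 and 10.95 in TregHAR cells (-1.68 ± 0.11, adjusted p = 3.76e-06). *Rasgrp1*, which activates Ras downstream of the receptor, fell by 0.88 ± 0.10 (adjusted p = 0.000105) and the transcription factor *Nfatc1* by 1.01 ± 0.15 (adjusted p = 0.000588). The other 18 were not called.

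Immediate early genes and NF-κB feedback genes, which respond within minutes to hours of stimulation, were high in naive cells and fell. Of 32 tested, 23 were lower, 14 of them by more than 2-fold, 1 was higher and 8 were not called, and 19 of the 23 were also lower against naive FACS arrays alone. *Egr1* measured 10.43, 11.26, 10.75 and 11.99 in naive and 6.82, 6.90, 7.07 and 8.0 in TregHAR cells (-3.91 ± 0.32, adjusted p = 1.21e-05). *Junb*, a subunit of AP-1, measured 12.30, 12.06, 12.35 and 13.03 against 9.59, 8.95, 8.80 and 9.55 (-3.22 ± 0.23, adjusted p = 5.36e-06). No TregHAR array came within 2 log2 units of a naive array for either gene. *Dusp1*, a phosphatase of MAP kinases, fell by 3.05 ± 0.19 (adjusted p = 2.67e-06), while *Egr3* differed by -2.81 ± 0.10 (adjusted p = 8.89e-08), the mRNA-destabilising protein *Zfp36* by -2.70 ± 0.27 (adjusted p = 4.45e-05), and *Tnfaip3* (A20), an inhibitor of NF-κB, by -2.52 ± 0.26 (adjusted p = 5.6e-05). *Fos*, the AP-1 partner of Junb, had 10.27, 11.13, 10.42 and 11.20 there against 8.27, 7.27, 7.85 and 9.29 in TregHAR cells (-2.59 ± 0.43, adjusted p = 0.00135). On both purifications the naive replicate 2 array had the higher *Fos* and *Egr1* level. The one member that rose was *Ier3*, an early survival gene (1.63 ± 0.30, adjusted p = 0.00261), although its highest naive value (8.14) lay above its lowest TregHAR value (7.96). Handling of the cells before lysis is not described by group in the sources used here, and its part in these levels was not tested.

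TGF-β receptors changed in opposite directions. *Tgfbr2*, the receptor subunit that binds TGF-β first, measured 11.35, 11.44, 11.30 and 10.86 in naive and 8.67, 9.20, 9.05 and 8.43 in TregHAR cells (-2.40 ± 0.19, adjusted p = 9.81e-06), with no overlap. Its other probes were dimmer and gave 0.06 and -0.43. *Tgfbr1*, the signalling subunit, measured 8.81, 8.80, 8.83 and 8.74 against 9.17, 9.87, 9.84 and 9.33 and rose (0.76 ± 0.16, adjusted p = 0.00496). The coreceptor *Tgfbr3* fell by 1.66 ± 0.11 (adjusted p = 4.53e-06), and the SMAD corepressors *Ski* and *Skil* by 0.87 ± 0.06 (adjusted p = 6.3e-06) and 1.05 ± 0.17 (adjusted p = 0.00126). Over the list, 4 of 24 genes were higher (16.7%) and 7 lower (29.2%), against 13.8% and 13.7% of all genes. The median of the list was -0.10.

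Interferon-stimulated genes were lower in 13 of 28 and higher in 2, and 12 of the 13 were also lower against naive FACS arrays alone. *Irf1*, a transcription factor of the interferon response, measured 12.35, 12.58, 12.16 and 12.71 in naive and 9.84, 10.11, 9.92 and 9.99 in TregHAR cells (-2.49 ± 0.15, adjusted p = 1.63e-06), and its 4 other probes also gave decreases, from -0.59 to -2.64. *Ifit3*, which restrains viral RNA, fell by 2.51 ± 0.10 (adjusted p = 1.09e-07). *Ifi213*, of the family of interferon-inducible DNA sensors and outside the list, measured 10.91, 11.39, 11.02 and 10.95 against 6.83, 6.46, 6.58 and 6.56 (-4.46 ± 0.11, adjusted p = 7.68e-09). Of 21 tested genes of Th1, Th2 and Th17 cells, 3 were higher (14.3%) and 4 lower (19%), with a median of -0.005. These shares were near the 13.8% and 13.7% of all genes. *Gata3*, the factor of Th2 cells that Treg cells also use, fell by 0.98 ± 0.18 (adjusted p = 0.00234) and *Stat4*, which transmits IL-12 signals, by 0.65 ± 0.14 (adjusted p = 0.00608). *Rora*, a receptor of the Th17 programme, rose by 0.43 ± 0.06 (adjusted p = 0.000547).

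Survival, p53 and stress genes were split. In the BCL2 and p53 list, 10 of 28 were higher and 7 lower. *Gadd45a*, a stress-induced brake on growth, measured 8.46, 8.49, 8.38 and 8.42 in naive and 6.39, 6.40, 6.30 and 6.34 in TregHAR cells (-2.08 ± 0.06, adjusted p = 2.27e-08). The survival genes *Bcl2a1b* and *Bcl2a1d* fell by 1.39 ± 0.09 (adjusted p = 3.7e-06) and 1.32 ± 0.11 (adjusted p = 1.51e-05), though they are near-identical paralogs whose probes may share signal. In the amino acid and unfolded protein list, 9 of 22 were higher and 5 lower. *Xbp1*, the transcription factor of the unfolded protein response, rose by 1.99 ± 0.27 (adjusted p = 0.00041), while *Ppp1r15a* (GADD34), which restores translation after stress, measured 12.04, 12.13, 12.09 and 12.68 in naive and 7.83, 6.92, 6.83 and 7.75 in TregHAR cells (-4.90 ± 0.27, adjusted p = 9.66e-07). *Atf4*, the central factor of the amino acid response, fell by 1.46 ± 0.25 (adjusted p = 0.00154).

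Cytoskeletal and metal-binding genes included some of the strongest increases. Annexins, S100 proteins and galectins were higher in 9 of 23 (39.1%), each by more than 2-fold, and lower in 4 (17.4%). *Lgals1*, galectin 1, an immunosuppressive lectin, measured 10.08, 9.32, 10.15 and 9.62 in naive and 12.35, 12.49, 12.45 and 11.92 in TregHAR cells (2.51 ± 0.19, adjusted p = 8.32e-06). The actin-capping protein *Capg* rose by 2.67 ± 0.13 (adjusted p = 6.04e-07) and the membrane protein *Emp1* by 2.84 ± 0.25 (adjusted p = 2.19e-05). *Anxa2*, annexin A2, measured 9.51 and 9.70 on naive FACS but 11.12 and 11.66 on naive MACS arrays, against 12.86, 12.73, 12.59 and 12.98 in TregHAR cells, so that its rise was 3.19 with FACS and 1.40 with MACS arrays. Metallothionein *Mt1*, which buffers zinc, measured 7.28, 7.61, 8.05 and 9.02 in naive and 12.68, 12.54, 12.58 and 13.07 in TregHAR cells, while its neighbour *Mt2*, at 6.10 on average in naive cells, under the ceiling, differed by 0.13 (adjusted p = 0.281). The zinc exporter *Slc30a1*, another target of the zinc sensor, was at least 1.39-fold lower (adjusted p = 0.000654). *Tfrc*, the transferrin receptor, measured 7.77, 7.68, 8.11 and 8.42 in naive and 11.93, 11.90, 11.85 and 11.49 in TregHAR cells. Of 15 metallothionein and iron genes, 2 were higher (13.3%) and 6 lower (40%), against 13.8% and 13.7% of all genes. The ferritin chain *Fth1* fell by 0.53 ± 0.11 (adjusted p = 0.00599).

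Kinases that harmine is known to bind were measured without bearing on their activity. *Dyrk1a* stayed under the background ceiling on all 8 arrays (naive 5.96 to 6.10, TregHAR 5.92 to 6.10), so its level cannot be compared. *Dyrk3* measured 5.96, 6.08, 6.37 and 6.20 in naive and 7.91, 7.91, 7.78 and 7.90 in TregHAR cells (1.72 ± 0.07, adjusted p = 1.78e-07). *Hipk2*, a related kinase, rose by 1.02 ± 0.19 (adjusted p = 0.00234) and *Dyrk1b* by 0.70 ± 0.15 (adjusted p = 0.00603). The mean of all *Dyrk1b* probes gave 0.16 (adjusted p = 0.148), and its MACS difference alone was 0.47 (adjusted p = 0.181). The splicing kinase *Clk4* fell by 0.86 ± 0.07 (adjusted p = 1.5e-05) and *Dyrk2* by 0.71 ± 0.08 (adjusted p = 7.27e-05). Of 11 tested, 3 were higher (27.3%) and 2 lower (18.2%), against 13.8% and 13.7% of all genes.

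The rule for naming genes ranked called genes by the smaller of their FACS and MACS differences, leaving out the markers of other blood cells described below. Called decreases among the markers left out reached -5.70 (neutrophil and monocyte) and -5.58 (erythroid and platelet). The first 20 increases and 20 decreases of the ranking included genes outside the lists above. *Fbxo2*, an F-box protein that recognises sugar chains, and *Igfbp7*, a secreted protein that binds insulin-like growth factors, were under the ceiling on all naive arrays and at least 10.5-fold (adjusted p = 1.35e-08) and at least 14.0-fold higher (adjusted p = 1.79e-05) in TregHAR cells. The kinase *Pbk*, active in mitosis, rose by 3.59 ± 0.09 (adjusted p = 6.13e-09) and *Rad54b*, of homologous recombination, by 3.32 ± 0.07 (adjusted p = 6.06e-09). Among decreases, *Pdlim4*, a cytoskeletal adaptor, measured 11.34, 10.96, 10.87 and 10.80 in naive and 6.97, 7.04, 6.86 and 6.51 in TregHAR cells (-4.15 ± 0.19, adjusted p = 2.98e-07). The ubiquitin ligase adaptor *Klhl3* was at least 9.21-fold lower (adjusted p = 1.35e-08), the monocarboxylate transporter family member *Slc16a5* at least 7.70-fold lower (adjusted p = 1.8e-07) and *Dtx1*, a regulator of Notch signalling, at least 7.47-fold lower (adjusted p = 6.06e-09), each under the ceiling on all TregHAR arrays. In these genes the mean of both differences ran from 3.32 to 6.40 for the 20 increases and from -2.51 to -4.90 for the 20 decreases, with SEs between 0.07 and 0.35. In TregHI cells, which were compared with the same naive arrays, the corresponding values ran from 2.52 to 6.16 and from -2.23 to -4.69. Of these 40 genes, TregHAR and TregHI cells differed from each other at an adjusted p under 0.05 in *Tfrc* (0.68 higher in TregHAR cells, adjusted p = 0.0384) and *Prnp* (-1.11, adjusted p = 0.0266), the prion protein, which measured 10.56, 10.79, 10.91 and 10.64 in TregHAR and 6.96, 6.99, 7.53 and 7.57 in naive cells. Over all genes, 73 of 15663 (0.466%) differed between TregHAR and TregHI cells.

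Markers of other blood cells moved with the comparison and with the purification. Of 24 B cell and MHC class II genes, 19 were lower in TregHAR than in naive cells, 11 of them also against naive FACS arrays alone. Their summed signal above the ceiling was 3667 to 4464 intensity units on naive FACS, 19976 to 25977 on naive MACS and 1385 to 1686 on TregHAR arrays. Of 37 neutrophil and monocyte genes, 30 were lower, 15 of them also against naive FACS arrays alone, with sums of 2649 to 6202, 18058 to 39989 and 124.1 to 316.2. Of 19 erythroid and platelet genes, 9 were lower (6 against FACS arrays alone), with sums of 2342 to 13640, 27807 to 29971 and 134.7 to 460.5. Of 14 CD8 T and NK cell genes, 6 were lower (4 against FACS arrays alone), with sums of 2626 to 3351, 5731 to 5856 and 2543 to 3263. On the TregHAR arrays the calprotectin chain *S100a8* (5.83 to 5.99) and lysozyme *Lyz1* (5.90 to 6.09) were under the background ceiling, and on naive arrays *S100a8* measured 9.82, 11.10, 12.31 and 13.23. The invariant chain *Cd74*, which guides MHC class II assembly, measured 10.40, 10.20, 12.80 and 12.62 in naive and 7.77, 7.87, 7.98 and 7.64 in TregHAR cells. *Cd8b1*, the beta chain of CD8, was the one member of these lists that was higher (0.99 ± 0.08, adjusted p = 1.23e-05), but its other probes gave -0.84 and -1.51 and the mean of its probes -0.46. Over all genes, 212 (1.35%) were higher and 6 (0.0383%) lower in naive MACS than in naive FACS cells. The share of these cells in the other differences was not tested beyond the comparison with naive FACS arrays alone.

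**Figure D3:**
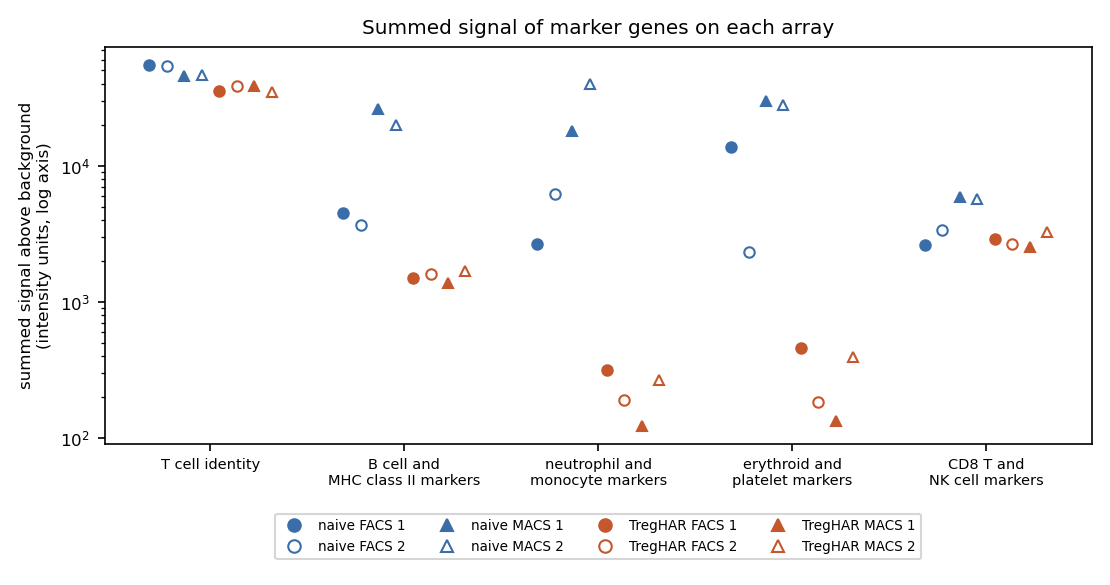
Signal above the background ceiling, summed over the tested markers of each cell type, on each of the 8 arrays (log axis, intensity units), with naive arrays in blue and TregHAR arrays in orange, circles for FACS and triangles for MACS. Naive MACS arrays lie above naive FACS arrays for the markers of all 4 other cell types, and TregHAR arrays lie below all naive arrays for B cell, neutrophil and erythroid markers but not for CD8 T and NK cell markers.

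The difference from naive cells depended on the purification in 85 genes (0.543% of those tested), and 23 of them belonged to the lists of other cells. The count was 39 with the 8 arrays of the comparison alone and ran from 48 to 207 when 1 array was left out, with 207 without naive MACS replicate 1, 48 without TregHAR FACS replicate 1, 49 without naive FACS replicate 2 and 54 without TregHAR FACS replicate 2. Beside *Cd74* (-2.48 with FACS and -4.90 with MACS arrays, adjusted p of the interaction 0.000387) and *H2-Eb1*, an MHC class II beta chain (-2.39 and -5.22, adjusted p 0.00162), they included the iron exporter *Slc40a1*, abundant in macrophages, with -1.07 and -3.94 (adjusted p 8.31e-05). *Slc40a1* was under the ceiling on all TregHAR arrays, so its level there is only a bound (at least 4.60-fold lower over all naive arrays and at least 1.72-fold lower than on naive FACS arrays), and it measured 6.98 and 7.03 on naive FACS and 9.70 and 9.99 on naive MACS arrays. The cyclin *Ccnd1* (adjusted p 0.00215) and *Anxa2* (adjusted p 0.0407) belonged to the 85 as well. The TregHAR arrays of these genes lay close together, and it was the naive arrays that differed.

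**Figure D4:**
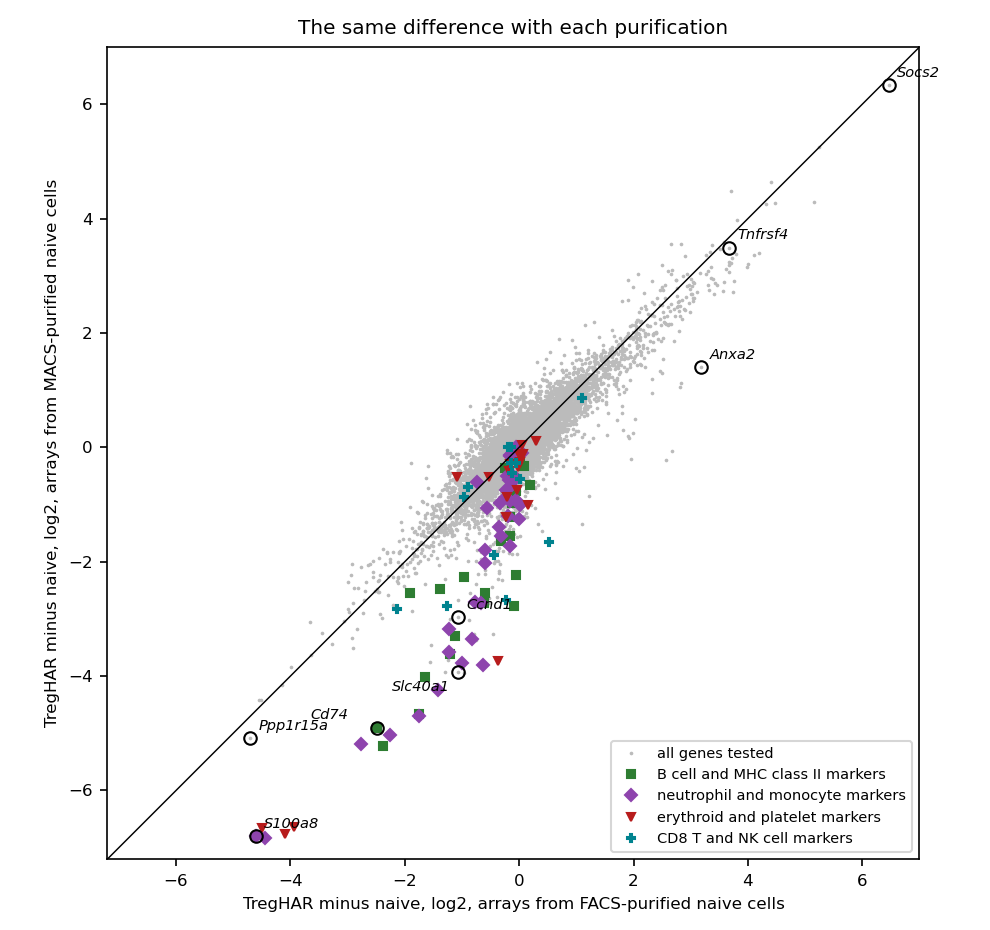
The log2 difference TregHAR minus naive of each of the 15663 genes with FACS arrays (x axis) and with MACS arrays (y axis), with markers of 4 other cell types in colour and 8 named genes circled. Most genes lie along the diagonal, while many markers of other cells, *Ccnd1* and *Slc40a1* lie below it on the side of lower values.

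The TregHAR arrays divided into pairs that did not follow the purification. Over all genes, the difference between replicates 1 and 2 correlated with r = -0.622 between TregHAR FACS and TregHAR MACS arrays, against 0.423 for naive arrays, so that FACS 1 stood with MACS 2 and FACS 2 with MACS 1. Genes are not independent replicates, and no p is given. In 104 genes both arrays of one pair lay above both of the other with means over 1 log2 unit apart, and 62 of them were called against naive cells, as were 27.5% of all genes. Of these 104 genes, 19 were histone genes of the H1f, H2ac, H2bc, H3c and H4c families, a group chosen after its values were seen, and 56 such genes were tested. All 19 were higher in FACS 1 and MACS 2. Against naive cells, 38 of the 56 were higher and 2 lower, with a median difference of 1.08. *H2bc11*, which encodes a histone H2B, measured 11.45 and 11.41 on those arrays and 9.84 and 9.76 on the other 2, against 7.83 to 8.41 in naive cells. Many histone genes are nearly identical, and their probes may share signal. Several genes described above follow the same split, with *Cdkn1a* higher on FACS 1 and MACS 2 and *Klf2*, *Foxo1* and *Cd27* lower. The alpha-actinin *Actn1* measured 9.04 and 9.10 on that pair and 10.23 and 10.10 on the other, with 11.64 to 12.05 in naive cells. *Asns*, asparagine synthetase, measured 8.05 and 9.0 against 6.90 and 6.84, and its call against naive cells (adjusted p = 0.0138) was lost without TregHAR FACS replicate 1 (1.34, adjusted p = 0.0526). *AA467197*, known as Nmes1, measured 8.04 and 8.14 against 10.10 and 10.14. The labels name nothing that this split follows.

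**Figure D5:**
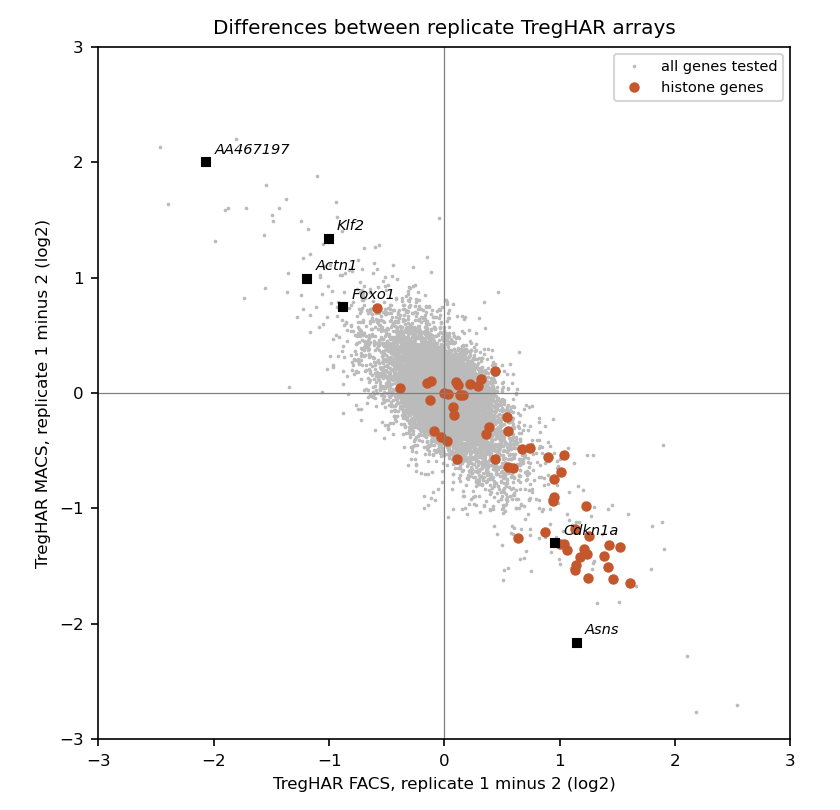
Replicate 1 minus replicate 2 (log2) of each gene in TregHAR cells from FACS-purified (x axis) and MACS-purified (y axis) naive cells, with 56 histone genes in orange and 6 named genes in black. The cloud runs from upper left to lower right (r = -0.622), and most histone genes lie at the lower right.

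Sex-linked genes differed between arrays as well. The Y-linked *Eif2s3y* measured 8.07 and 8.08 on the naive replicate 2 arrays and 5.96 and 6.07 on the naive replicate 1 arrays, and 5.92, 5.95, 6.99 and 6.38 on the TregHAR arrays. *Xist*, the RNA of the inactive X chromosome, measured 8.19, 5.76, 8.47 and 5.84 in naive and 9.28, 9.33, 9.66 and 10.49 in TregHAR cells. The difference of *Xist* was 2.62 ± 0.61 (adjusted p = 0.00945), and whether the donors' sex has a part in other differences was not tested. The naive arrays of equal number thus shared these levels across purifications, and the 4 naive arrays fall into 2 such pairs. With *Eif2s3y* signal as a block, 4447 genes were called and 4221 of them were shared with the 4309. Such a block does not separate donors by sex. The TregHAR arrays with this signal also held *Xist* (9.66 and 10.49), while the naive arrays with it did not (5.76 and 5.84).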

How the data were processed

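Total RNA of each sample was labelled as cRNA and hybridised to 1 single-colour mouse bead array. The authors deposited a table of average bead intensity per probe, labelled as not normalized although its mean was 256.6 on each of the 12 arrays, and a table of normalized log2 values, which served as an alternative. The submitters' processing notes name the package lumi, with no version. From the intensity values, background was corrected by normexp with an offset of 50, followed by quantile normalization over the 12 arrays and log2 transformation. Probes above the array median on fewer than 2 arrays were left out, which kept 32081 of 45281. Probe annotation gave 1 gene for 34885 probes, several for 18 and none for 10378, and the probe with the highest mean over all arrays stood for a gene. The background ceiling of an array is the peak of its distribution of log2 values plus 3 times the spread of the values below that peak.

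The 15663 genes were fitted with limma 3.58.1 in R 4.3.3, with a mean for each treatment and purification (6 residual degrees of freedom, 3.43 added from all genes) and p-values adjusted by Benjamini-Hochberg. "At least" folds set the bright group's mean log2 level against the dim group's mean of, per array, the ceiling or the probe's own value, whichever was higher. The number of arrays, 2 per treatment and purification, limits the precision. The procedure was tested on simulated data. The compared arrays, gene lists and members were chosen with earlier results of these data known. Genes were named by a rule that took the first 20 increases and decreases by the smaller of the FACS and MACS differences. They had to be called with both references, with the same sign in both purifications, and above the ceiling. Markers of other blood cells were left out of this ranking. The rule also took up to 5 called members and 2 uncalled members per list, and a set of Treg and naive cell genes. Of the genes so named, the text describes 27 of 40 leading genes and 4 of 66 uncalled list members and gives the rest by counts. The other genes named were chosen after their values were seen. Replicate numbers were not taken to pair naive with TregHAR arrays, since deviations of same-numbered arrays correlated with r = 0.089 (FACS) and 0.135 (MACS). Among naive arrays the replicate difference correlated with r = 0.423 between purifications. Alternatives covered scaling, background, filters, probes, arrays, blocks, the methods' t-test and leaving out each array.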

Additional observations from a re-analysis of the deposited data

Results flagged for a closer look

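For 5 of the genes named, the difference between TregHAR and naive cells itself differed between FACS and MACS arrays at an adjusted p under 0.05 (limma interaction). The FACS difference minus the MACS difference was 2.87 log2 units for *Slc40a1* (adjusted p = 8.31e-05), 2.84 for *H2-Eb1* (adjusted p = 0.00162), 2.42 for *Cd74* (adjusted p = 0.000387), 1.90 for *Ccnd1* (adjusted p = 0.00215) and 1.79 for *Anxa2* (adjusted p = 0.0407). *Slc40a1* was under the background ceiling on all TregHAR arrays, so its differences are bounds. For the first 4 the decrease was larger with MACS arrays, and for *Anxa2* the increase was larger with FACS arrays. Each purification holds 2 arrays per treatment, too few for a search for single arrays that stand apart.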

How the results depend on the processing

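The 4309 calls became 3529 to 4447 under changes of scaling, background, filter, probes, blocks and reference, and 3624 to 4357 when 1 array was left out. Leaving out TregHAR FACS replicate 1 and MACS replicate 2 gave 3509 and leaving out the other TregHAR pair 3815, both chosen after seeing the data. With the replicate block 4385 genes were called, 4111 of them shared with the 4309, and with the TregHAR MACS numbers crossed, chosen after seeing the data, 4302. Fits on fewer arrays called fewer genes. FACS arrays alone gave 2913 calls (1407 lower), MACS arrays alone 3171, the arrays without *Eif2s3y* signal 2916 (1378 lower), and the arrays with it 2084 (1132 higher and 952 lower). The methods' t-test gave 4967 genes at its nominal threshold and 3190 after Benjamini-Hochberg. The 85 genes that depended on purification became 39 with the 8 naive and TregHAR arrays only and 48 to 207 when 1 array was left out, the most without naive MACS replicate 1 (both chosen after seeing the data). The cause was not tested.

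Values that changed sign were those of genes at or near background or with several probes. With the mean of all probes, *Cd8b1* came to -0.46 (adjusted p = 0.00117) and *Foxp3* to 0.007. *Dyrk1a* (-0.03) came to 0.071 with MACS arrays only, 0.017 with arrays that held *Eif2s3y* signal, 0.008 without TregHAR FACS replicate 1 and MACS replicate 2, and -0.068 without the other TregHAR pair. *Ikzf2* (0.04) came to -0.029 with MACS arrays only and ran from -0.031 without naive MACS replicate 1 to 0.121 without naive MACS replicate 2 when 1 array was left out. *Itgae* (-0.15) came to 0.083 with FACS arrays only and 0.042 without TregHAR FACS replicate 1 and MACS replicate 2, and to -0.336 without the other TregHAR pair. *Mt2* came to -0.037 with arrays that held *Eif2s3y* signal. *S1pr1* passed the threshold with the replicate block (adjusted p = 0.0379) and with *Eif2s3y* signal as a block (adjusted p = 0.0135). With the TregHAR MACS numbers crossed in the block, *S1pr1* (adjusted p = 0.0482) and *Ccr7* (adjusted p = 0.0387) passed. Fitted by treatment alone, both passed as well (adjusted p = 0.0286 and 0.027). *S1pr1* kept its direction under every alternative. For *Foxp3*, *Dyrk1a*, *Ikzf2*, *Itgae* and *Mt2*, the direction of these small differences is below what the arrays resolve. Of the 154 called genes named, 121 kept their direction and call under every alternative in which they were tested. The methods' t-test is not part of this count and was compared by numbers of calls only. After Benjamini-Hochberg, that t-test kept 70.5% of the calls of the main fit.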
